A study of Mus musculus with 28 samples.

Results

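Scx, Mkx, Tnmd, Fmod, Kera, Thbs4, Comp, Cilp and Cilp2, 9 genes that mark tendon and the myotendinous junction, were followed by bulk RNA sequencing in the tibialis anterior (TA), a hindlimb muscle, of 28 mice. The set is defined by gene name and uses no threshold on measured values, but it was chosen with earlier results of these data known. Counts of its members beside all genes are therefore descriptions. Each symbol was matched to 1 Ensembl identifier (Tnmd ENSMUSG00000031250, Scx ENSMUSG00000034161, Mkx ENSMUSG00000061013, Fmod ENSMUSG00000041559, Kera ENSMUSG00000019932, Thbs4 ENSMUSG00000021702, Comp ENSMUSG00000031849, Cilp ENSMUSG00000042254, Cilp2 ENSMUSG00000044006). All 9 were among the 55359 identifiers found in both count tables, and all 9 had enough reads to be tested in both cohorts, where 15439 genes (Dnm2 cohort) and 14841 genes (Bin1 cohort) were tested.

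Tendon joins muscle to bone through parallel collagen fibrils laid down by tenocytes, and the myotendinous junction is the folded end of the muscle fibre where force passes into those fibrils. Scx and Mkx are transcription factors of the tendon lineage, and Tnmd is a membrane protein of mature tenocytes. Fmod and Kera are small leucine-rich proteoglycans that bind collagen fibrils, Thbs4 and Comp are thrombospondins of the tendon and junction matrix, and Cilp and Cilp2 are secreted matrix proteins first described in cartilage. A dissected TA can hold more or less tendon, and in bulk tissue fewer tendon cells and less RNA per cell cannot be told apart.

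The mice were C57BL/6N, 8 weeks old at sampling per the study's methods, and fell into 7 groups of 4 mice in 2 cohorts. The Dnm2 cohort held WT placebo, WT tamoxifen, Dnm2 S619L/+ placebo and Dnm2 S619L/+ tamoxifen mice. The Bin1 cohort held WT placebo, Bin1 mck-/- placebo and Bin1 mck-/- tamoxifen mice, with no tamoxifen-treated WT group. Tamoxifen, a modulator of oestrogen receptors, was given in the diet. Dnm2 S619L/+ mice carry 1 mutated copy of the dynamin 2 gene in all cells, whereas Bin1 mck-/- mice lost Bin1 under a muscle creatine kinase promoter, which is active in striated muscle fibres. Both are models of centronuclear myopathy.

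Reads on genes ran from 15586333 to 109710886 per mouse in the Dnm2 cohort and from 24671835 to 35136327 in the Bin1 cohort. Both extremes of the Dnm2 cohort were WT placebo mice, mouse 3 the lowest and mouse 1 the highest. The cohorts also differed in RNA input (300 against 350 ng) and fragmentation time (2 against 8 min), so levels were compared within a cohort. Values are CPM, read counts scaled to library size in each cohort with its own TMM factors. Bin1 averaged 540 ± 15.7 CPM (SD, n = 4) in WT and 56.1 ± 5.10 CPM in Bin1 mck-/- placebo mice (log2 fold change -3.26, SE 0.13, adjusted p = 7.1e-10). The Dnm2 substitution is not visible in counts, and Dnm2 averaged 63.0 CPM in WT placebo and 67.5 CPM in Dnm2 S619L/+ placebo mice. A gene is called changed where the adjusted p of edgeR's quasi-likelihood test, over all genes tested in that cohort, was under 0.05.

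Per kilobase of exon, Thbs4 led the members in untreated WT muscle of the Dnm2 cohort (mean level 17.9 CPM per kb), followed by Fmod (11.9) and Cilp (5.09). Mkx was lowest, at a mean level of 0.0769 CPM per kb. The ranges over mice of neighbouring genes in this order overlapped throughout. In Dnm2 S619L/+ placebo mice the order was led by Cilp (194 CPM per kb), ahead of Thbs4 (70.8) and Fmod (26.6), and in WT tamoxifen mice by Fmod (185) and Thbs4 (153). Per mouse, the summed level of the 9 genes was 56.9 to 306 CPM in WT placebo mice of the Dnm2 cohort and 812 to 1820 CPM after tamoxifen. It was 707 to 1710 CPM in Dnm2 S619L/+ placebo and 942 to 1350 CPM in Dnm2 S619L/+ tamoxifen mice. For the Bin1 cohort it was 115 to 255 CPM in WT placebo, 222 to 1750 CPM in Bin1 mck-/- placebo and 105 to 516 CPM in Bin1 mck-/- tamoxifen mice.

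**Figure D1:**
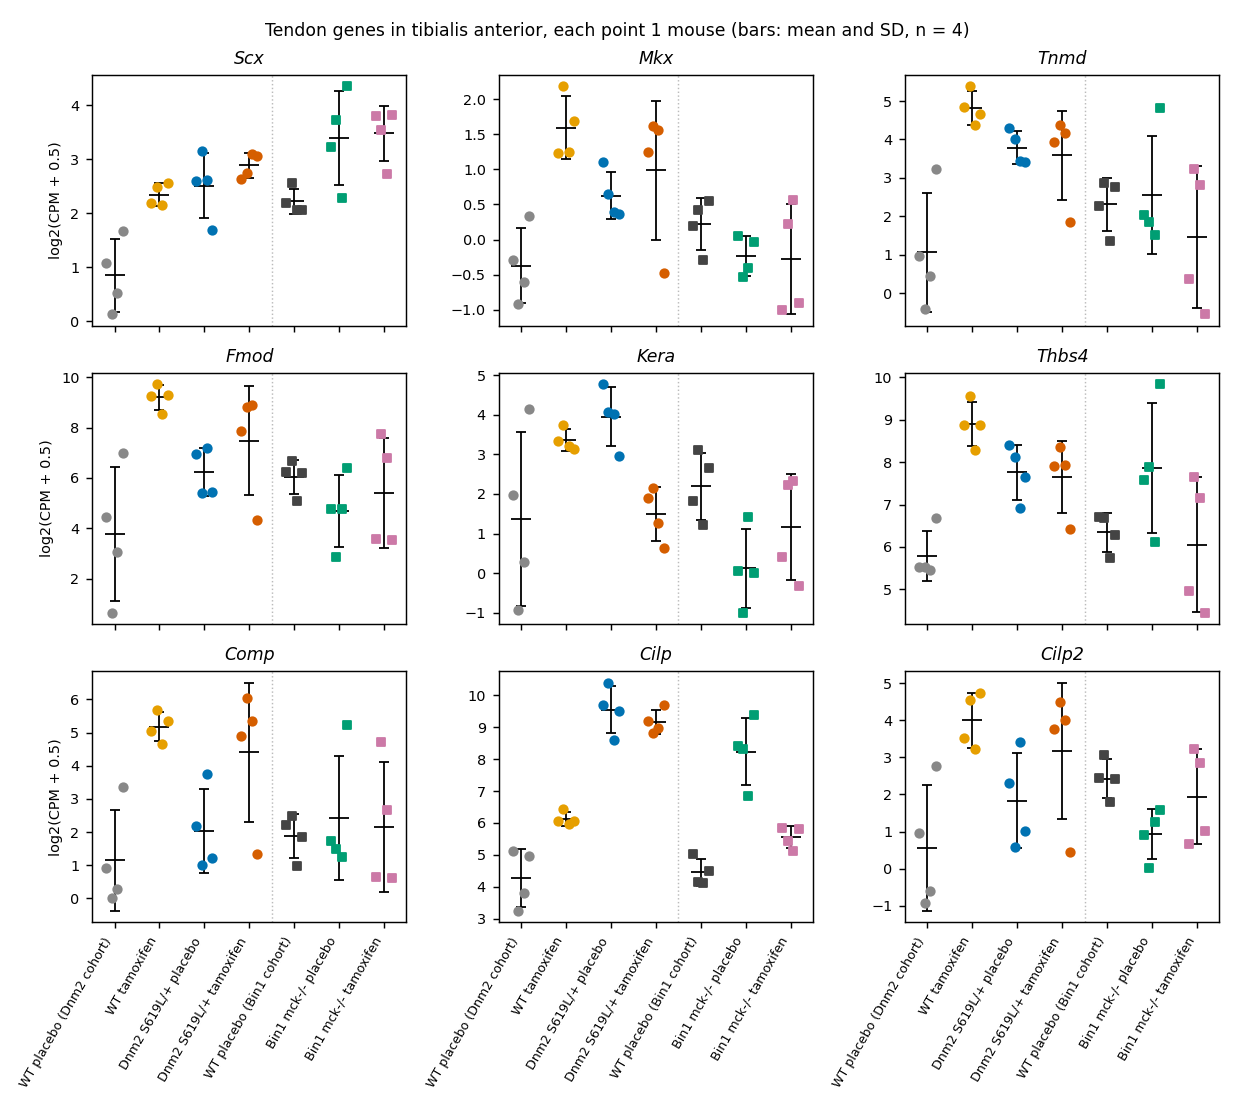
Level of each gene in each mouse as log2(CPM + 0.5) on the vertical axis, by group on the horizontal axis, with the mean and SD of 4 mice and a dotted line between the Dnm2 and Bin1 cohorts. Cilp was high in both Dnm2 S619L/+ groups and in Bin1 mck-/- placebo mice. Fmod, Comp and Cilp2 had their highest group means in WT tamoxifen mice, whose ranges overlapped those of Dnm2 S619L/+ tamoxifen mice.

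The promoters of Cilp, Thbs4, Fmod and Tnmd are shown because these genes carry the main differences below. The sequences come from RefSeq (GRCm38.p6, while the counts were made on mm39) and hold the 250 bases before the annotated start, 5′ to 3′ on the gene's strand. RefSeq promoters were matched for 6 of the 9 members and not for Scx, Mkx and Comp. Capitals mark matches, on either strand, to the E-box CANNTG, the core bound by basic helix-loop-helix factors such as Scx, and to the oestrogen response half-site GGTCA. The windows are chr9:65264930-65265179 (+) for Cilp, chr13:92794819-92795068 (-) for Thbs4, chr1:134037004-134037253 (+) for Fmod and chrX:133850758-133851007 (+) for Tnmd.
Cilp: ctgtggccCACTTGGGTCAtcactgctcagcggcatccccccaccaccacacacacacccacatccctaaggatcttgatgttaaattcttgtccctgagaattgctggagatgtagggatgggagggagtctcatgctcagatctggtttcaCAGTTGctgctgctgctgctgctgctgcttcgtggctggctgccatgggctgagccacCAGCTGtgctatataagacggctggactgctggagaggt
Thbs4: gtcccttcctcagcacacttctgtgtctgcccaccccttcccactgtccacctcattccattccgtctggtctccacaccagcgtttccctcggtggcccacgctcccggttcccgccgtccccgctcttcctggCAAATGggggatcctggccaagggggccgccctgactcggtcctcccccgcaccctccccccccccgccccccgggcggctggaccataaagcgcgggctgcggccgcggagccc
Fmod: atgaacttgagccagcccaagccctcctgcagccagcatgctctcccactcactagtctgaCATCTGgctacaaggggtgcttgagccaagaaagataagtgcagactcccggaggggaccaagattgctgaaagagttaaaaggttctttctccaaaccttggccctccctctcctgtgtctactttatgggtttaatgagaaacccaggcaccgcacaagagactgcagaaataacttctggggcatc
Tnmd: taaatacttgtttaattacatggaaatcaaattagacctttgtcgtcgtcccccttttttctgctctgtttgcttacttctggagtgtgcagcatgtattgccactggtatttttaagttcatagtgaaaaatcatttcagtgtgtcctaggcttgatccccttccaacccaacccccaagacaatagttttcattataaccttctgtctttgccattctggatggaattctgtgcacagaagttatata
The Cilp window held 3 E-boxes, beginning 242, 97 and 39 bases upstream of the start, and 1 oestrogen response half-site at 236 bases that adjoins the first E-box without overlap. Thbs4 and Fmod held 1 E-box each, at 115 and 189 bases, and the Tnmd window held no match. Of the 2 members not printed, Cilp2 held 1 E-box and Kera 2 half-sites. An E-box was found in 66.2% and a half-site in 35.2% of all 32851 RefSeq promoter windows of that length, so these matches are common ones. Neither the full oestrogen response element, in which 2 half-sites face each other (0.0639% of windows), nor TATAAA (12.4%) was found in the 6 member windows.

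Dnm2 S619L/+ mice were compared with WT mice on placebo to ask how the mutation alone moved these genes. Cilp, Thbs4, Scx and Tnmd rose, and no member fell. These 4 of 9 stand beside 12.1% of all 15439 genes called higher and 21.9% called in either direction. The median log2 fold change of the 9 members was 1.57, against 0.02 over all genes. In 5 of 9 members every mutant lay above every WT mouse, which 14.3% of all genes did. Without WT placebo mouse 4 the count of called members was 7, and without any of the other mice but Dnm2 S619L/+ tamoxifen mouse 4 it was 3, Tnmd being lost. With library totals in place of TMM 4 members were called as well, but 91.1% of all calls were then higher, against 55.2%.

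In WT muscle, tamoxifen was compared with placebo. All members except Kera rose, 8 of 9 against 15.8% of all genes called higher and 27.7% called either way. In these 8 genes every treated mouse lay above every untreated mouse, as was so for 17.6% of all genes. The median log2 fold change of the 9 members was 2.97 and that of all genes -0.04. Without WT placebo mouse 3 the count was 5. With library totals in place of TMM it was again 8, with 92% of all calls higher against 57.1%. This comparison and the one of genotypes use the same 4 WT placebo mice.

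Tamoxifen given to Dnm2 S619L/+ mice was compared with placebo in the same genotype. None of the 9 members was called by edgeR, where 8.27% of all genes were. At an unadjusted p under 0.05 there were 2 members, Kera and Comp (share of all genes not counted), and DESeq2 called 0 members. The median log2 fold change of the members was 0.33, against -0.03 over all genes. Leaving out WT placebo mouse 4, which enters through the shared estimate of spread, gave 2 called members, and leaving out WT placebo mouse 2 or Dnm2 S619L/+ tamoxifen mouse 4 gave 1. Treated mutants still differed from WT placebo mice, with 6 of 9 members called higher against 15.8% of all genes (28.9% either way). That count was 3 without WT placebo mouse 1 or without Dnm2 S619L/+ tamoxifen mouse 2.

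The difference between the tamoxifen effects in the 2 genotypes was tested as an interaction. It was negative in all 9 members and was called in 1, Thbs4, while 0.259% of all genes were called. An unadjusted p under 0.05 was reached by 6 members. The share of all genes under that threshold was not counted. The members correlated within groups, so their signs are not independent. The median interaction of the members was -2.16 on the log2 scale, against -0.01 over all genes. The Thbs4 call was lost in 12 of 16 fits that each left out 1 mouse, while 3 members were called without WT placebo mouse 4 and 2 without Dnm2 S619L/+ placebo mouse 3. The number of all genes called moved too, from 40 to 1 without WT tamoxifen mouse 1 and to 293 without Dnm2 S619L/+ placebo mouse 3.

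In the Bin1 cohort only Cilp was called, higher in Bin1 mck-/- placebo than in WT mice (1 of 9, beside 2.61% of all genes) and lower in Bin1 mck-/- tamoxifen than in Bin1 mck-/- placebo mice (1 of 9, beside 3.13%). Between Bin1 mck-/- tamoxifen and WT placebo mice no member was called by edgeR, with 0.849% of all genes called. In that comparison 2 members had an unadjusted p under 0.05 (share of all genes not counted), and DESeq2 called 1. The first call was lost without WT placebo mouse 8 (adjusted p = 0.0512) and the second without Bin1 mck-/- tamoxifen mouse 3 (adjusted p = 0.0529). Without Bin1 mck-/- placebo mouse 3 or Bin1 mck-/- tamoxifen mouse 3 there were 2 calls in the first comparison, and without Bin1 mck-/- placebo mouse 3 there was 1 against WT after tamoxifen, with Scx as the added gene. Of all genes 388 were called in the first comparison, 18 without WT placebo mouse 8 and 759 without Bin1 mck-/- tamoxifen mouse 2, and 464 in the second, 160 without Bin1 mck-/- tamoxifen mouse 3 and 1253 without Bin1 mck-/- tamoxifen mouse 2.

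**Figure D2:**
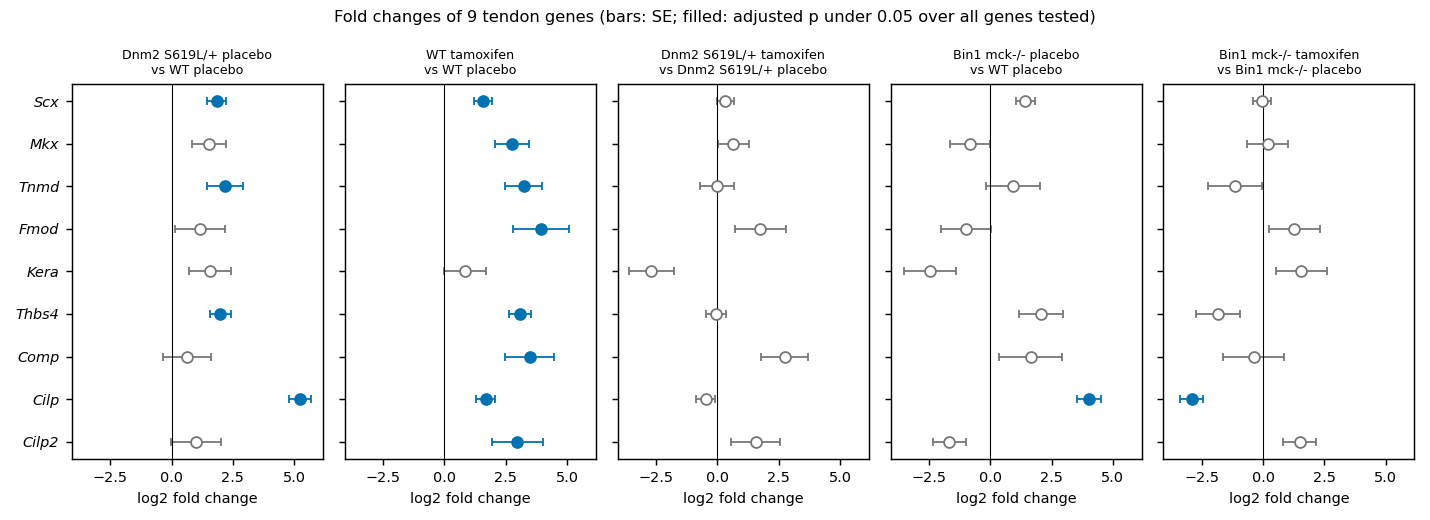
Log2 fold change (horizontal axis, bars are SE) of the 9 genes (vertical axis) in 5 comparisons, with filled points for an adjusted p under 0.05. Filled points are 4, 8, 0, 1 and 1 from left to right, and the only filled point left of zero is Cilp after tamoxifen in Bin1 mck-/- mice.

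Scx, which drives the formation of tendon progenitors, rose with the Dnm2 mutation. WT placebo mice of the Dnm2 cohort had 1.61, 0.594, 0.948 and 2.70 CPM, and Dnm2 S619L/+ placebo mice had 5.52, 8.39, 5.61 and 2.73 CPM. The groups did not overlap, although the lowest mutant lay just above the highest WT mouse. The log2 fold change was 1.83 (SE 0.38, adjusted p = 0.0032), a 3.56-fold difference. WT tamoxifen mice had 4.06, 5.10, 3.95 and 5.42 CPM, all above the placebo mice, and Scx rose by 1.57 on the log2 scale (SE 0.38, adjusted p = 0.00583). In Dnm2 S619L/+ tamoxifen mice Scx stood at 5.73, 6.21, 8.10 and 7.87 CPM, inside the range of the untreated mutants and 4.47-fold above WT placebo (adjusted p = 0.000918).

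Scx in the Bin1 cohort was 4.08, 5.39, 3.68 and 3.67 CPM in WT, 8.87, 12.7, 4.37 and 20 CPM in Bin1 mck-/- placebo and 13.5, 11.2, 6.13 and 13.7 CPM in Bin1 mck-/- tamoxifen mice. The treated mice lay above every WT mouse, a separation seen in 3.68% of genes, and 1 untreated mutant fell among the WT values. Neither difference from WT passed the adjusted threshold (placebo, log2 1.44, adjusted p = 0.0693, and tamoxifen, log2 1.39, adjusted p = 0.129). Scx lies within Bop1, a ribosome assembly gene on the opposite strand, without shared exonic bases in the GRCm38 annotation, and the strand setting of the counting was not given in the sources used here. Bop1 itself rose by 0.48 with the Dnm2 mutation (23.1 to 32.1 CPM, adjusted p = 0.0128), and differed by -0.04 after tamoxifen in WT (adjusted p = 0.826) and by -0.03 in Bin1 mck-/- mice (adjusted p = 0.873).

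Mkx, which maintains the tendon programme and tendon collagen, was the scarcest member and shares 201 exonic bases with the transcript AC148004.2 on the same strand. It stood at 0.314, 0.0283, 0.158 and 0.759 CPM in WT placebo and at 1.85, 4.05, 1.88 and 2.73 CPM in WT tamoxifen mice. These groups were well apart, and Mkx rose 6.74-fold (log2 2.75, SE 0.69, adjusted p = 0.00595). The WT placebo values of 0.0283 and 0.158 CPM rest on 1 and 2 reads. Dnm2 S619L/+ placebo mice had 1.64, 1.06, 0.814 and 0.791 CPM, also above all WT placebo mice, but the difference missed the threshold (log2 1.53, adjusted p = 0.095). Of the Dnm2 S619L/+ tamoxifen mice 3 had 1.87 to 2.55 CPM and mouse 4 had 0.216 CPM. That group was called above WT placebo nonetheless (log2 2.19, adjusted p = 0.0192), in 13 of the 16 fits that each left out 1 mouse. Mkx did not exceed 0.970 CPM in any mouse of the Bin1 cohort, and 1 Bin1 mck-/- tamoxifen mouse had 0 reads, which allows up to 0.131 CPM (3 reads, counting error only).

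Tnmd, a marker of mature tenocytes, rose with the mutation and with tamoxifen in WT mice. WT placebo mice had 1.44, 0.255, 0.869 and 8.93 CPM, WT tamoxifen mice 28.2, 41.5, 20.1 and 25.0 CPM, and Dnm2 S619L/+ placebo mice 19.3, 15.5, 10.4 and 10.1 CPM. Mouse 4 of the WT placebo group was far above the other 3, and just below the lowest mutant. Tnmd was 9.38-fold higher after tamoxifen in WT (log2 3.23, SE 0.76, adjusted p = 0.00591) and 4.54-fold higher with the mutation (log2 2.18, SE 0.74, adjusted p = 0.0445). The call for the mutation held in 2 of 16 fits that each left out 1 mouse, with adjusted p up to 0.111.

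In Dnm2 S619L/+ tamoxifen mice Tnmd was 14.8, 20.4, 17.4 and 3.12 CPM, so mouse 4 lay below all untreated mutants. The mean of the treated mutants (13.9 ± 7.54 CPM, SD) was close to that of the untreated ones (13.8 ± 4.43 CPM). Against WT placebo the treated mutants were called higher (log2 2.18, adjusted p = 0.0361), in 10 of 16 fits without 1 mouse. The interaction for Tnmd was -3.23 on the log2 scale and was not called (adjusted p = 0.197). Among Bin1 cohort mice Tnmd was 2.05 to 6.85 CPM in WT and 2.37, 3.09, 3.58 and 27.8 CPM in Bin1 mck-/- placebo mice, and 0.183 to 8.91 CPM after tamoxifen. The 3 groups overlapped.

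Fmod, a proteoglycan that controls collagen fibril diameter, had the highest fold change of the 9 genes after tamoxifen in WT mice. Untreated WT mice had 21.1, 1.07, 7.90 and 128 CPM, and treated WT mice had 610, 842, 370 and 620 CPM. Fmod rose 15.3-fold (log2 3.94, SE 1.13, adjusted p = 0.019). The untreated mice differed widely, with mouse 4 the highest, and the call was lost without mouse 1 or mouse 3 of that group (adjusted p up to 0.0544). Dnm2 S619L/+ placebo mice had 123, 41.5, 145 and 42.8 CPM and overlapped WT placebo mice. Dnm2 S619L/+ tamoxifen mice had 232, 451, 481 and 19.7 CPM, with mouse 4 below every untreated mutant, and their difference from WT placebo missed the threshold (log2 2.90, adjusted p = 0.0574). Fmod in the Bin1 cohort ranged from 33.7 to 102 CPM in WT, from 6.79 to 82.7 CPM in Bin1 mck-/- placebo and from 11 to 213 CPM in Bin1 mck-/- tamoxifen mice.

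Kera, a related proteoglycan also known from the cornea, was the member that was not called after tamoxifen in WT mice. It stood at 3.40, 0.0283, 0.711 and 17.3 CPM in WT placebo and at 9.69, 12.9, 8.80 and 8.28 CPM in WT tamoxifen mice, with mouse 4 of the placebo group above all treated mice (log2 0.83, SE 0.85, adjusted p = 0.486). Without that mouse Kera was called, with a log2 fold change of 2.61 (adjusted p = 0.0203). The 0.0283 CPM of WT placebo mouse 2 was 1 read. In mutants the treated mice were the lower ones. Dnm2 S619L/+ placebo mice had 26.8, 16.4, 15.6 and 7.31 CPM and Dnm2 S619L/+ tamoxifen mice 3.22, 3.94, 1.92 and 1.05 CPM, with no overlap, as for 6.36% of all genes in that direction. The log2 fold change was -2.69 (SE 0.91, unadjusted p = 0.00932), which did not pass adjustment over all genes (adjusted p = 0.0787).

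The interaction for Kera was -3.52 and was not called either (adjusted p = 0.253). Kera in the Bin1 cohort was 1.82 to 8.10 CPM in WT mice and 0.532, 0, 2.18 and 0.506 CPM in Bin1 mck-/- placebo mice. Its 0 reads in mouse 2 allow up to 0.0965 CPM. The groups overlapped, and the log2 difference of -2.45 was not called (adjusted p = 0.21). Bin1 mck-/- tamoxifen mice had 0.292 to 4.54 CPM.

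Thbs4, a thrombospondin of the tendon and junction matrix, was the most abundant member in untreated WT mice of both cohorts per length. In the Dnm2 cohort it stood at 45.4, 45.5, 43.5 and 102 CPM in WT placebo, 471, 755, 313 and 473 CPM in WT tamoxifen and 336, 276, 120 and 199 CPM in Dnm2 S619L/+ placebo mice. Both groups lay above all WT placebo mice. Thbs4 was 8.5-fold higher after tamoxifen in WT (log2 3.09, SE 0.44, adjusted p = 0.000369), and the mutation went with a 3.94-fold rise (log2 1.98, SE 0.43, adjusted p = 0.00488). Dnm2 S619L/+ tamoxifen mice had 239, 329, 244 and 85.1 CPM, a mean of 224 ± 102 CPM beside 233 ± 93.9 CPM on placebo, and were called above WT placebo (log2 1.92, adjusted p = 0.00435). The interaction was -3.14 on the log2 scale (SE 0.59, adjusted p = 0.047), the one called among the 9 members. It was called in 4 of the 16 fits that each left out 1 mouse.

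Bin1 cohort mice had Thbs4 at 104, 102, 52.5 and 77.1 CPM in WT and 192, 234, 68.7 and 914 CPM in Bin1 mck-/- placebo mice. Mouse 4 was above any other mouse of its cohort and mouse 3 lay among WT values, and the log2 difference of 2.07 was not called (adjusted p = 0.242). After tamoxifen the 4 mice had 30.4, 201, 142 and 21.3 CPM, on both sides of the WT range.

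Comp, a pentameric matrix protein that binds collagen, followed Fmod. WT placebo mice had 1.40, 0.509, 0.711 and 9.76 CPM, and WT tamoxifen mice 32.8, 50.7, 24.6 and 40.0 CPM. Comp rose 11.2-fold (log2 3.48, SE 1.0, adjusted p = 0.0179), a call lost without WT placebo mouse 2 or mouse 3 (adjusted p up to 0.0526). Dnm2 S619L/+ placebo mice, with 4.05, 1.49, 13.0 and 1.82 CPM, overlapped WT placebo mice. Dnm2 S619L/+ tamoxifen mice had 29.4, 65.3, 40.1 and 2.01 CPM, so 3 mice lay above all untreated mutants and mouse 4 among them. Against untreated mutants the log2 fold change was 2.74 (SE 0.97, adjusted p = 0.0928), and without mouse 4 it was 3.14 and called (adjusted p = 0.0281). Against WT placebo mice Comp was called higher in treated mutants (log2 3.37, adjusted p = 0.02), in 12 of 16 fits without 1 mouse. Comp in the Bin1 cohort was 1.47 to 5.15 CPM in WT mice, and single mice stood out in the other groups, at 37.0 CPM on placebo and 25.6 CPM on tamoxifen.

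Cilp, a secreted matrix protein that binds growth factors of the TGF-beta family, was the member that separated both disease models from WT. In the Dnm2 cohort it was 34.0, 8.91, 13.4 and 30.4 CPM in WT placebo and 835, 1350, 386 and 735 CPM in Dnm2 S619L/+ placebo mice. It rose 37.8-fold (log2 5.24, SE 0.47, adjusted p = 9.11e-06). It was, in the Bin1 cohort, 32.3, 17.1, 16.9 and 21.9 CPM in WT and 343, 316, 114 and 662 CPM in Bin1 mck-/- placebo mice, a 16.2-fold rise (log2 4.02, SE 0.50, adjusted p = 0.00855). In neither cohort did the groups overlap, and in the Bin1 cohort 9.09% of all genes were apart in that direction. The difference between both disease effects was tested in a joint fit of the 28 mice. No member was called there by edgeR (0.312% of all genes were), and DESeq2 called 0 members. An unadjusted p under 0.05 was reached by 2 members, Kera and Mkx, and the share of all genes under it was not counted.

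Tamoxifen went with different Cilp levels in the 2 models. Dnm2 S619L/+ tamoxifen mice had 585, 452, 507 and 822 CPM, within the range of untreated mutants and 27.0-fold above WT placebo (adjusted p = 3.96e-05). Bin1 mck-/- tamoxifen mice had 57.1, 42.9, 34.4 and 55.6 CPM, all below the untreated mutants, as were 5.13% of all genes (log2 fold change -2.91, SE 0.47, adjusted p = 0.0134). These treated mice still lay above every WT mouse of their cohort, with a log2 difference of 1.1 that was not called (adjusted p = 0.292). The tamoxifen effect differed between the models by 2.47 on the log2 scale (SE 0.61, adjusted p = 0.0457), with Cilp the 1 member of 9 called beside 1.71% of all genes. Protocol and cohort cannot be told apart in that joint fit, and 20 of the 28 fits without 1 mouse lost the call (adjusted p up to 0.102). WT tamoxifen mice had Cilp at 66.0, 86.7, 61.6 and 65.7 CPM, higher than WT placebo mice (log2 1.68, SE 0.40, adjusted p = 0.00696).

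Cilp2, a paralogue of Cilp, was called in 1 comparison. It was 1.45, 0.0283, 0.158 and 6.34 CPM in WT placebo, 10.9, 22.8, 8.94 and 26 CPM in WT tamoxifen and 4.50, 1.01, 10.1 and 1.54 CPM in Dnm2 S619L/+ placebo mice. It rose 7.82-fold with tamoxifen in WT (log2 2.97, SE 1.03, adjusted p = 0.0421), a call that 7 of 16 fits without 1 mouse made. The WT placebo values of 0.0283 and 0.158 CPM were 1 and 2 reads. Dnm2 S619L/+ tamoxifen mice had 13.1, 21.8, 15.5 and 0.864 CPM, with mouse 4 again the lowest. In the Bin1 cohort all Bin1 mck-/- placebo mice (0.515 to 2.5 CPM) lay below all WT mice (2.97 to 7.90 CPM), as did 7.47% of all genes, and the log2 difference of -1.67 was not called (adjusted p = 0.177). After tamoxifen Cilp2 was 1.09 to 8.82 CPM.

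Within groups the members fell into 2 sets without a sharp border. After each group's mean was subtracted, Fmod correlated with Cilp2 (Pearson r = 0.93 over 28 mice, as a description) and with Comp (r = 0.89), and Tnmd with Thbs4 (r = 0.90). Cilp and Scx correlated with each other (r = 0.74) but not closely with the other 7 genes (r from -0.07 to 0.37). Among those 7 genes r ran from 0.43 (Kera with Thbs4) to 0.93. Dnm2 S619L/+ tamoxifen mouse 4, which itself enters these correlations, shows the split in 1 animal. It was the lowest of its group in Mkx, Tnmd, Fmod, Kera, Thbs4, Comp and Cilp2, and yet the highest in Cilp, with Scx at 7.87 CPM.

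**Figure D3:**
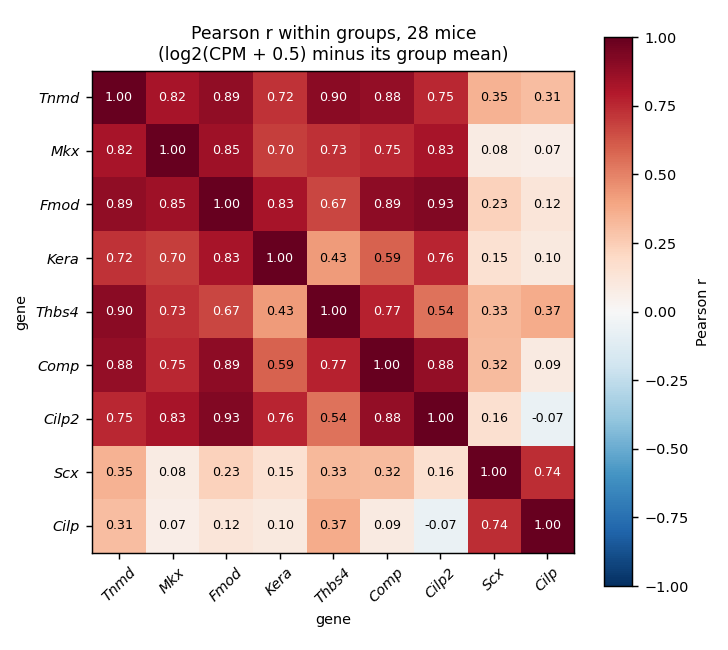
Pearson r between each pair of the 9 genes (both axes) over 28 mice, from log2(CPM + 0.5) after subtraction of the group mean. Tnmd, Mkx, Fmod, Kera, Thbs4, Comp and Cilp2 form 1 block, in which the lowest r is 0.43 (Kera with Thbs4). Cilp and Scx lie outside it, with r = 0.74 between them.

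Over all 28 mice, with only the cohort mean subtracted, the gene most like Fmod among 14572 genes was Cilp2 (r = 0.95), then Cpxm2 (r = 0.92), and Cilp2 was most like Fmod and Cpxm2 (r = 0.93). Comp was nearest to Cpxm2 (r = 0.93) and Col8a2 (r = 0.92), Mkx to Fmod (r = 0.92) and Prrt1 (r = 0.92), Tnmd to Thbs4 (r = 0.92) and Ptx4 (r = 0.88), and Thbs4 to Pcsk5 (r = 0.93) and Tnmd. Cilp was nearest to Tnfrsf23 (r = 0.95) and Tubb6 (r = 0.95), and Scx to Gpx1 (r = 0.88) and Runx1 (r = 0.88). Kera had the loosest neighbours, Slc5a3 (r = 0.75) and Wif1 (r = 0.67). These values include the differences between groups and carry no test.

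Other tendon genes were counted beside the members, with no test between the lists. These lists too were chosen with earlier results known, so their counts are descriptions. Of 36 further tendon matrix and tenocyte genes, 32 rose and 1 fell after tamoxifen in WT mice, beside 27.7% of all genes called. Col3a1 (log2 3.58) and Col14a1 (log2 1.79), fibrillar and fibril-associated collagens, were the calls with the smallest p. The median log2 fold change of this list was 2.3, beside 2.97 for the 9 members. In Dnm2 S619L/+ mice 20 of the 36 rose after tamoxifen, beside 8.27% of all genes called. They included Thbs2 (log2 4.50) and Col12a1 (log2 5.55). None of the 9 members was called in that comparison. With the Dnm2 mutation alone 4 of 36 rose, a share like the 12.1% of all genes called higher. They included Mfap5 (log2 1.53) and Fbn2 (log2 2.36), which are microfibril proteins. The list's median log2 fold change was 0.65, beside 0.02 over all genes. In Bin1 mck-/- placebo mice 2 of 36 rose, Tnxb (log2 1.17) and Mfap5 (log2 2.5), and the same 2 fell after tamoxifen (log2 -1.15 and -2.20). Of all genes 2.61% and 3.13% were called in these comparisons.

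Of 18 further tendon transcription and growth factors, 6 rose and 1 fell with the Dnm2 mutation, including Ccn2, a matricellular growth factor (log2 2.13), and Tgfbr1, a TGF-beta receptor (log2 0.62). After tamoxifen 8 rose and 1 fell in WT, with Ccn1 at log2 1.57, and 3 rose and 1 fell in Dnm2 S619L/+ mice, with Igf1 at log2 3.10. In Bin1 mck-/- placebo mice 2 of 17 tested rose, Egr1 (log2 2.39) and Ccn2 (log2 1.67), beside 2.61% of all genes called. After tamoxifen in Bin1 mck-/- mice 2 of 17 fell, Etv5 (log2 -1.16) and Etv4 (log2 -1.08), beside 3.13% of all genes called. In Dnm2 S619L/+ mice 8.27% of all genes were called after tamoxifen. Of 14 genes of the muscle fibre side of the junction, 3 rose and 1 fell with the Dnm2 mutation and 4 rose and 1 fell after tamoxifen in WT, while 21.9% and 27.7% of all genes were called in these comparisons. The list's median log2 fold change was 0.36 with the mutation and -0.02 after tamoxifen in WT, beside 0.02 and -0.04 over all genes. The genes that rose after tamoxifen included Col22a1, the collagen of the junction, at log2 2.44. None was called after tamoxifen in Dnm2 S619L/+ mice or between Bin1 mck-/- placebo and WT mice. Tendon sheath genes numbered 6 tested, of which 3 rose with the Dnm2 mutation, with Tppp3 at log2 1.46, and 2 rose in Bin1 mck-/- placebo mice, with Tppp3 at log2 1.68. After tamoxifen 1 of the 6 rose and 2 fell in WT, Htra4 at log2 2.19 and Cd55 at log2 -0.62 among them, and Cd55 fell in Dnm2 S619L/+ mice (log2 -0.62). The summed level of the sheath list was 394 to 516 CPM in WT placebo and 282 to 358 CPM in WT tamoxifen mice, without overlap.

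Bone genes moved beside the tendon genes in the tamoxifen groups. Of 14 bone genes 12 were tested in the Dnm2 cohort, and 10 rose after tamoxifen in WT and 10 in Dnm2 S619L/+ mice. Of all genes 27.7% and 8.27% were called in these comparisons. Mmp13, a collagenase of bone and cartilage cells and the gene of the bone list with the highest mean over all mice of the cohort, was at most 0.952 CPM in WT placebo and 588 to 1160 CPM in WT tamoxifen mice. The summed level of the bone list was 33.0 to 62.8 CPM in WT placebo and 1110 to 2890 CPM in WT tamoxifen mice, with no overlap. In Dnm2 S619L/+ tamoxifen mice it was 822, 1790, 2210 and 69.9 CPM, and the low mouse 4 is the one with low Fmod, Comp and Tnmd. It was 16.7 to 29.8 CPM in Dnm2 S619L/+ placebo mice, with 2 of the 14 genes at 0 in all 4 mice. Cartilage genes followed in part, with 3 of 9 tested called higher in each tamoxifen comparison of this cohort.

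In the Bin1 cohort 1 mouse alone, Bin1 mck-/- tamoxifen mouse 2, had a raised bone level, at 766 CPM against 19.7 to 27.5 CPM in the other 3. It also had the highest Comp, Fmod, Tnmd and Thbs4 of its group. Mouse 3 of that group had 19.7 CPM of bone genes and nevertheless 111 CPM of Fmod and 142 CPM of Thbs4. Bin1 mck-/- placebo mouse 4, with the highest Thbs4 of its cohort, lay in a group with 31.7 to 42.0 CPM of bone genes, 4 of the 14 at 0 in all 4 mice and Mmp13 at most 0.503 CPM. Dnm2 S619L/+ placebo mice, in which Cilp, Thbs4, Scx and Tnmd were called higher, had summed bone levels below every WT placebo mouse of their cohort. Whether bone or tendon carried along with the dissected muscle had a part in the tamoxifen values or in those of the mutants was not tested.

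**Figure D4:**
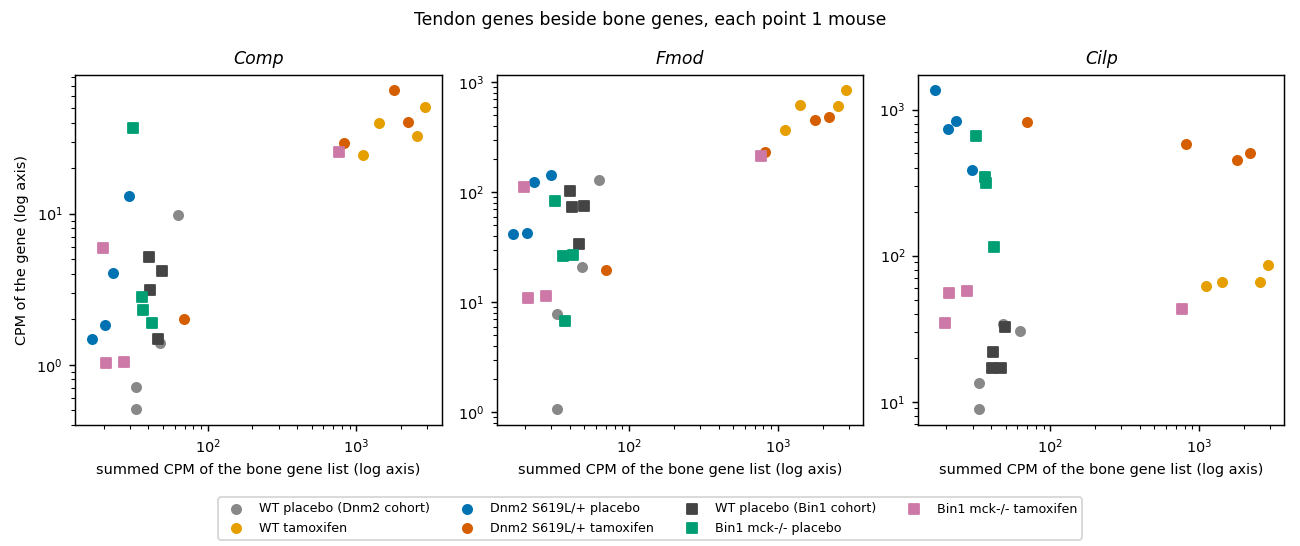
Level of Comp, Fmod and Cilp in each of 28 mice (vertical log axes, CPM) against the summed level of 14 bone genes (horizontal log axes, CPM), with 1 symbol per group. Mice with 766 CPM or more of bone genes have at least 24.6 CPM of Comp and 213 CPM of Fmod, whereas Cilp is at least 114 CPM in Dnm2 S619L/+ and Bin1 mck-/- placebo mice with at most 42.0 CPM of bone genes.

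Markers of other cells were counted in these comparisons as well. Of all genes 21.9% were called with the Dnm2 mutation and 27.7% after tamoxifen in WT. The shares were 8.27% after tamoxifen in Dnm2 S619L/+ mice, 2.61% in Bin1 mck-/- placebo mice and 3.13% after tamoxifen in Bin1 mck-/- mice. Of 10 macrophage genes, 4 rose with the Dnm2 mutation, 8 after tamoxifen in WT, 0 after tamoxifen in Dnm2 S619L/+ mice and 3 in Bin1 mck-/- placebo mice. Of 12 muscle fibroblast genes, 4 rose and 1 fell with the Dnm2 mutation. After tamoxifen in WT 2 rose, beside 15.8% of all genes called higher. The list's median log2 fold change there was -0.04, as over all genes. In Bin1 mck-/- placebo mice 2 rose, and 3 fell in Bin1 mck-/- tamoxifen mice, the comparison in which Cilp fell. The summed level of the fibroblast list was 864 to 1000 CPM in WT, 1560 to 2000 CPM in Bin1 mck-/- placebo and 420 to 1470 CPM in Bin1 mck-/- tamoxifen mice. The untreated mutants thus lay above both other groups, as they did for Cilp. The same held for the adipocyte list, at 3.1 to 5.65, 28.4 to 96.1 and 3.14 to 23.2 CPM in that order of groups. The macrophage list summed to 64.8 to 102, 193 to 389 and 74.4 to 218 CPM, so there untreated mutants lay above WT but overlapped treated mutants. In Bin1 mck-/- placebo mice 3 of 5 tested adipocyte genes rose, and after tamoxifen 1 of 5 adipocyte and 4 of 8 Schwann cell genes fell. In the Dnm2 cohort the fibroblast list summed to 941 to 1290 CPM in WT placebo, 1100 to 2210 CPM in Dnm2 S619L/+ placebo and 1580 to 1910 CPM in WT tamoxifen mice, and the macrophage list to 88.8 to 146, 123 to 445 and 221 to 423 CPM. Fast muscle fibre genes summed to 162000 to 194000 CPM in WT placebo and 127000 to 152000 CPM in WT tamoxifen mice, without overlap, although 0 of 10 were called there (Myh4 had log2 -0.60, adjusted p = 0.0696). With the Dnm2 mutation 1 of 10 fell, Myh4, a fast myosin (log2 -0.75, adjusted p = 0.033). In treated mutants against WT placebo 5 of 10 were called lower, beside 28.9% of all genes called either way. Of the same 10 genes Actn3 and Pvalb fell in Bin1 mck-/- placebo mice (log2 -1.05 and -1.12) and rose after tamoxifen (log2 1.05 and 1.33). The part of these cells in the members' values was not tested.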

How the data were processed

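Per the labels and the submitters' processing notes, poly(A) stranded libraries of TA RNA were handled with bcl2fastq 2.20.0.422, cutadapt 1.10, Bowtie 1.2.2, STAR 2.5.3 and HTSeq 0.6.1p1 on mm39, and the authors deposited raw read counts per gene, 1 table per cohort. The annotation release and the strand setting of the counting are not given in the sources used here. For the Bin1 cohort, 4 lines named no gene (median 23.9% of the total) and were left out. Symbols, exon lengths and overlaps came from GENCODE on GRCm38, with 52083 identifiers named, and promoters from RefSeq. A count of 0 was bounded at 3 reads, which covers counting error only.

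From the deposited counts, each cohort was fitted as a whole in R 4.3.3 with edgeR 4.0.16 (TMM, filterByExpr, robust quasi-likelihood F test, prior count 2, Benjamini-Hochberg adjustment over all genes tested, threshold 0.05). The SE is the unshrunk log2 fold change divided by the square root of F. Differences between models used 1 joint fit of 28 mice, on 16036 genes. CPM used TMM-scaled library sizes, and correlations used log2(CPM + 0.5). The code was tested on simulated data. Of 42 replicate pairs none was alike within sampling noise. The mice of a group are separate animals per the study's overview, and their sex is not in the labels.

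The members and the gene lists were chosen with earlier results of these data known. The text names the 9 members, the 2 genes most like each member, and Bop1 for its overlap with Scx. From the tendon and junction lists it names some, not all, of the called genes with the smallest p (up to 2 per list and comparison). It also names the gene of highest mean CPM in the bone list, and fast fibre genes that were chosen after their values were seen. Alternatives were RLE factors, no low-count filter, the study's filter (over 10 reads in at least 90% of mice), DESeq2 1.42.0, only the groups compared, a replicate block and each mouse left out. Library totals without TMM were added after the data were seen.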

Additional observations from a re-analysis of the deposited data

Results flagged for a closer look

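With 4 mice per group, 63 combinations of gene and group were searched for 1 mouse far from the other 3, by Dixon's criterion, and 6 met it. Chance meets it in about 1 of 20 groups if values are normally distributed, which was not checked for CPM. Tnmd, Fmod, Thbs4 and Comp correlated within groups (r from 0.67 to 0.90), so flags of these genes in the same mouse are not independent. WT placebo mouse 4 of the Dnm2 cohort gave 4 of the 6, with Tnmd at 8.93 CPM (0.255 to 1.44 in the others), Fmod at 128 CPM (1.07 to 21.1), Thbs4 at 102 CPM (43.5 to 45.5) and Comp at 9.76 CPM (0.509 to 1.40). Its summed bone level was 62.8 CPM, the highest of its group, in which the others had 33.0 to 48.0 CPM. The library number of this mouse lies outside the run of the other numbers of its cohort, and the labels do not say why. Bin1 mck-/- placebo mouse 4 gave the other 2, with Tnmd at 27.8 CPM (2.37 to 3.58) and Comp at 37.0 CPM (1.90 to 2.81), beside a bone level of 31.7 CPM, the lowest of its group.

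Thbs4 differed in its tamoxifen effect between genotypes, by an interaction of -3.14 on the log2 scale (adjusted p = 0.047). Most fits that left out a single mouse lost this call, as did the fit with RLE factors. Thbs4 was higher in 4 of 4 treated WT mice than in any untreated WT mouse, while treated and untreated Dnm2 S619L/+ mice overlapped. Cilp differed in its tamoxifen effect between disease models, by 2.47 on the log2 scale (adjusted p = 0.0457), with all 4 treated Bin1 mck-/- mice below and all 4 treated Dnm2 S619L/+ mice within the range of untreated mutants. Cohort and library protocol cannot be told apart in the latter, and most fits that left out a single mouse lost the Cilp call.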

How the results depend on the processing

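Of the 22 calls of a member in a comparison, none changed sign under any alternative and 11 were made in every fit that tested the gene. Cilp, Scx and Thbs4 in Dnm2 S619L/+ placebo against WT placebo mice, and Tnmd, Scx, Mkx, Thbs4 and Cilp after tamoxifen in WT, were called in every fit that tested them (Mkx was not tested under the study's filter). Counts of called members that moved by over 1.5 times were these. For WT tamoxifen (8 called) the count was 5 without a low-count filter. For Dnm2 S619L/+ tamoxifen against WT placebo (6) it was 3 without a filter, with only the groups compared and with the replicate block. For the interaction (1) it was 0 with RLE factors, without a filter, with the study's filter and with the replicate block, and 2 with DESeq2. For Bin1 mck-/- placebo against WT (1) it was 2 with DESeq2 and with only the groups compared. For Bin1 mck-/- tamoxifen it was 0 against placebo (1) with only the groups compared, and 1 against WT (0) with DESeq2 and with only the groups compared. For the tamoxifen effect between models (1) it was 0 without a filter and 2 with DESeq2. The study's filter left 6 members tested in the Dnm2 cohort and 7 in the Bin1 cohort, and with it 6 of 6 were called for WT tamoxifen and 5 of 6 for treated mutants against WT placebo. The causes of these moves were not tested.

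Leaving out each mouse in turn gave 3 to 7 called members for the Dnm2 genotype, 5 to 9 for WT tamoxifen, 0 to 2 for Dnm2 S619L/+ tamoxifen, 3 to 8 for it against WT placebo, 0 to 3 for the interaction, 0 to 2 for Bin1 mck-/- placebo against WT, 0 to 1 for Bin1 mck-/- tamoxifen against placebo and against WT, 0 for the disease effect between models and 0 to 1 for the tamoxifen effect between models.

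The labels share replicate numbers 1 to 4, except for WT placebo mice of the Bin1 cohort, numbered 5 to 8. Mice of the same number were not regularly alike (24 pairs in the Dnm2 cohort, r from -0.395 to 0.424, 9 over 0.1, and 4 pairs in the Bin1 cohort, r from -0.222 to 0.203, 1 over 0.1). Whether a number marks a shared litter or batch is not in the labels, and these values cannot decide it. With the replicate block 3, 7, 0, 3 and 0 members were called in the Dnm2 cohort (genotype, WT tamoxifen, mutant tamoxifen, treated mutant against WT placebo, interaction) and 1 for Bin1 mck-/- tamoxifen against placebo.

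With library totals in place of TMM, chosen after seeing the data, the median of all genes stood at 0.285 for the Dnm2 genotype, 0.238 for WT tamoxifen, 0.354 for treated mutants against WT placebo, -0.209 for the interaction, 0.135 and -0.162 for Bin1 mck-/- placebo and tamoxifen, and 0.143 and 0.215 for the disease and tamoxifen effects between models (log2). The share of higher calls went from 63.1% to 74.4% for mutant tamoxifen, 54.6% to 93.2% for treated mutants against WT placebo, 48.5% to 21% for Bin1 mck-/- tamoxifen, 46% to 92.1% and 61.7% to 84.6% between models. Counts of all called genes went from 1277 to 30 in the mutant tamoxifen comparison with only the groups compared, from 40 to 10 in the interaction with the block and to 322 with DESeq2, and from 274 to 63 without a filter and 1349 with DESeq2 for the tamoxifen effect between models. With library totals 3382 became 5275 for the Dnm2 genotype. Leaving out 1 mouse gave 368 (without Dnm2 S619L/+ tamoxifen mouse 3) to 2562 (without mouse 4) called genes for mutant tamoxifen, and 6 (without Dnm2 S619L/+ tamoxifen mouse 2) to 2195 (without Bin1 mck-/- tamoxifen mouse 2) for the tamoxifen effect between models. For Bin1 mck-/- placebo 388 became 1458 with only the groups compared.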

Other observations

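The ratio of Kera to Fmod, a pair of proteoglycans of the same family, was chosen after its values were seen and is given as a description. Kera was 10.8% to 39.4% of Fmod (CPM) in Dnm2 S619L/+ placebo mice and 0.4% to 5.31% in Dnm2 S619L/+ tamoxifen mice, so these groups did not overlap. In WT mice of the same cohort it was 2.63% to 16.1% on placebo and 1.34% to 2.38% on tamoxifen. In the Bin1 cohort it was 4.04% to 7.98% in WT, 0% to 8.09% in Bin1 mck-/- placebo and 1.98% to 7.2% in Bin1 mck-/- tamoxifen mice.

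The ratio of Cilp to Fmod, chosen in the same way, was 267% to 3250% in Dnm2 S619L/+ placebo mice and 23.8% to 829% in WT placebo mice of the same cohort, so these groups overlapped. WT tamoxifen mice had 10.3% to 16.7%. In the Bin1 cohort it was 421% to 4660% in Bin1 mck-/- placebo mice, above 16.8% to 50.2% in WT and overlapping 20.2% to 506% in Bin1 mck-/- tamoxifen mice. Dnm2 S619L/+ tamoxifen mice ran from 100% to 4160%, with mouse 4 at the upper end.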
